A study of Homo sapiens with 13 samples.

Results

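The regions described here are the FOXA1 peaks on chromosome 12 in Ishikawa and Hec1A, both cell lines of human endometrial cancer. They were chosen by chromosome alone, as all rows on chromosome 12 of both deposited peak lists. They number 3554 of 68107 peaks, of which 2940 of 54855 belong to Ishikawa and 614 of 13252 to Hec1A. Chromosome 12 was picked because earlier results of these data showed raised input tags there in Ishikawa, so its input level is given as a description with no test. FOXA1 was mapped by chromatin immunoprecipitation and sequencing (ChIP-seq) with 1 rabbit antibody against FOXA1 in both lines. The groups are 6 Ishikawa ChIP libraries, 2 Ishikawa input libraries, 3 Hec1A ChIP libraries and 2 Hec1A input libraries, where input is chromatin sequenced without immunoprecipitation. The labels give no treatment or genotype beyond the name of the line. The ChIP libraries of a line were pooled before peaks were called, into 343739762 tags for Ishikawa and 143055568 tags for Hec1A. Each line therefore has 1 list and no value has a replicate error. Of these tags, 33199775 lay in peaks in Ishikawa and 1598933 in Hec1A. A site without a peak in a line is one not called there, and binding under the thresholds was not tested.

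FOXA1 is a forkhead protein that binds DNA wrapped in nucleosomes and opens it for other factors, and for this it is called a pioneer factor. In breast and endometrial epithelium it is known as a partner of the oestrogen receptor, and most of its sites lie in enhancers away from gene starts. Such a factor tends to bind in groups of neighbouring sites. Chromosome 12 carries, among many other genes, the stem cell receptor gene LGR5, the epithelial keratin genes KRT7, KRT8 and KRT18, the HOXC homeobox genes, the growth factor receptor gene ERBB3 and the vitamin D receptor gene VDR. Coordinates below are those of hg19, and no peak was assigned to a gene, since no annotation or sequence of hg19 was used.

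A peak's signal is its normalized tag count, the number of ChIP tags in the peak per 10000000 tags. On chromosome 12 the Ishikawa signal had a median of 14.3, with 5% of peaks below 6.37 and 5% above 80.2. On the other autosomes the Ishikawa median was 9.60, with 5% below 4.36 and 5% above 52.1. The chromosome 12 median was 1.49 times that of the other autosomes, and all 21 other autosomes had lower medians, the highest being 10.5 on chromosome 17. Weak and strong Ishikawa peaks of chromosome 12 thus stood higher alike, although the single highest signal, 1268, lay on another autosome.

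Ishikawa input and local background stood higher on chromosome 12 in the same proportion. Pooled input tags averaged 7.88 per Ishikawa peak on chromosome 12 and 5.31 elsewhere on the autosomes, which is 1.48 times as many. The local background is the tag level of the 10000 bp around a peak, computed as the signal divided by the deposited fold over that region, the local fold. Its Ishikawa median was 1.98 tags per 10000000 on chromosome 12, against 1.33 for the other autosomes together, and the ratio was 1.49. Of the 21 other autosomes, the highest input average was 5.68, on chromosome 17, and the highest local background 1.41, on chromosome 3. Input and ChIP are separate libraries, and both gave chromosome 12 the highest level of the autosomes.

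Hec1A did not show this level. Its median local background was 0.751 tags per 10000000 on chromosome 12, against 0.819 for the other autosomes together, and 8 of 21 other autosomes were lower. The median Hec1A signal was 4.82 on chromosome 12 and 4.96 on the other autosomes, with 11 of 21 other autosomes lower. Input tags of Hec1A are not analysed here, so its input level on chromosome 12 is not known.

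**Figure D1:**
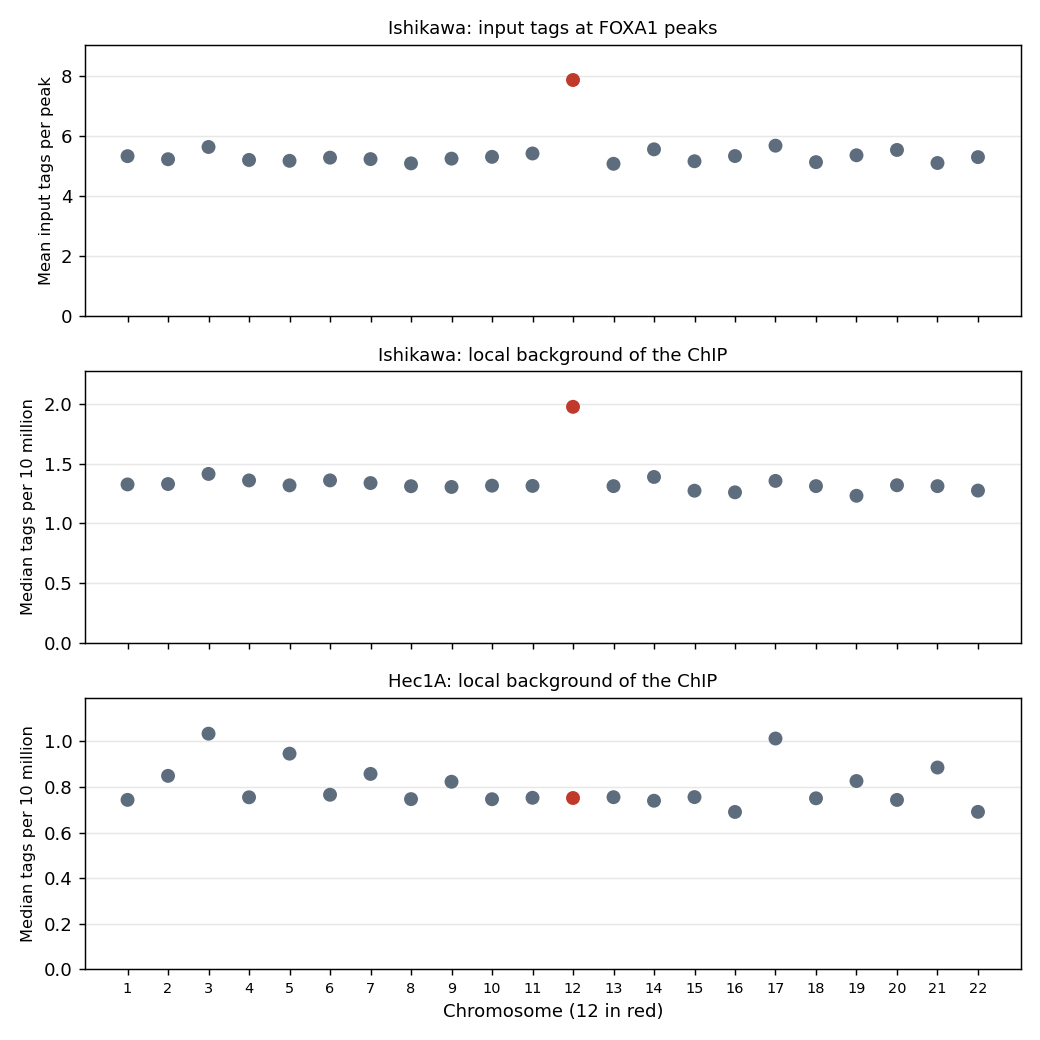
Levels by autosome, 1 point per chromosome with chromosome 12 in red. The top panel gives the mean input tags per Ishikawa peak (7.88 on chromosome 12). The panels under it give the median local background per peak width, in tags per 10000000, of Ishikawa (1.98) and Hec1A (0.751). Peak widths differ between the lines. Chromosome 12 stands above all other autosomes in both Ishikawa panels. In Hec1A it lies within their range, where 8 of 21 are lower.

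The raised Ishikawa level ran along the whole of chromosome 12. In the 13 windows of 10 Mb with at least 100 Ishikawa peaks, the input average lay between 7.26 tags per peak at 80 to 90 Mb and 8.53 at 50 to 60 Mb. The last window, from 130 Mb, held 48 Ishikawa peaks and averaged 6.75. On the other autosomes 240 windows held at least 100 Ishikawa peaks, with a median of 5.26 input tags per peak. Only 3 of those 240 windows reached the lowest of the 13 on chromosome 12. All 3 lay at the end of chromosome 3, from 170 Mb on, with 7.57, 8.17 and 7.77 tags per peak.

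Low input was rare at the Ishikawa peaks of chromosome 12. The lowest value in the input column is 0.5, which the file headers do not explain. It stood at 10 peaks, 0.340% of the Ishikawa peaks on chromosome 12, against 0.967% on the other autosomes. At least 15 input tags were present at 4.32% of the peaks on chromosome 12 and at 0.364% on the other autosomes. The Ishikawa peak with the most input on chromosome 12, at 53343562 to 53343914, had 25 input tags, a signal of 154 and a fold of ChIP over input, the input fold, of 23.8, and was shared with Hec1A. A peak at 53336640 to 53336992, less than 10 kb away, had 22 input tags and an input fold of only 4.33. The others among the 6 with the most input were at 91782224 to 91782576 with 23 tags, 13043447 to 13043799 with 23, 49927212 to 49927564 with 22, and 63557316 to 63557668 with 20. Of these 6 peaks, 4 had an input fold under 6, close to the fold of 4 that the authors required. The 6 were picked by input, which divides the input fold, so low folds are favoured among them. Of all Ishikawa peaks on chromosome 12, 20.1% had an input fold from 4 to 5 and 14.8% one from 5 to 6.

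The local fold and the input fold divide a peak's tags by a level measured at the same place, and by these chromosome 12 did not stand above the other autosomes. The median local fold was 6.94 on chromosome 12 and 6.91 on the other autosomes in Ishikawa, with 11 of 21 other autosomes lower. The median input fold was 7.37 on chromosome 12 and 7.79 on the other autosomes, and here chromosome 12 was the lowest of the autosomes, just under chromosome 16 at 7.39. An input fold between 4 and 5 was found for 20.1% of the Ishikawa peaks on chromosome 12 (95% Wilson interval 18.7% to 21.6%) and for 18.6% on the other autosomes (18.2% to 18.9%). In Hec1A the median local fold was 5.97 on chromosome 12, against 5.70 for the other autosomes together, with 15 of 21 lower. Peak shape did not set the chromosome apart, since the median focus ratio, which tells how tightly tags surround the peak centre, was 0.829 on chromosome 12 and 0.828 on the other autosomes in Ishikawa.

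**Figure D2:**
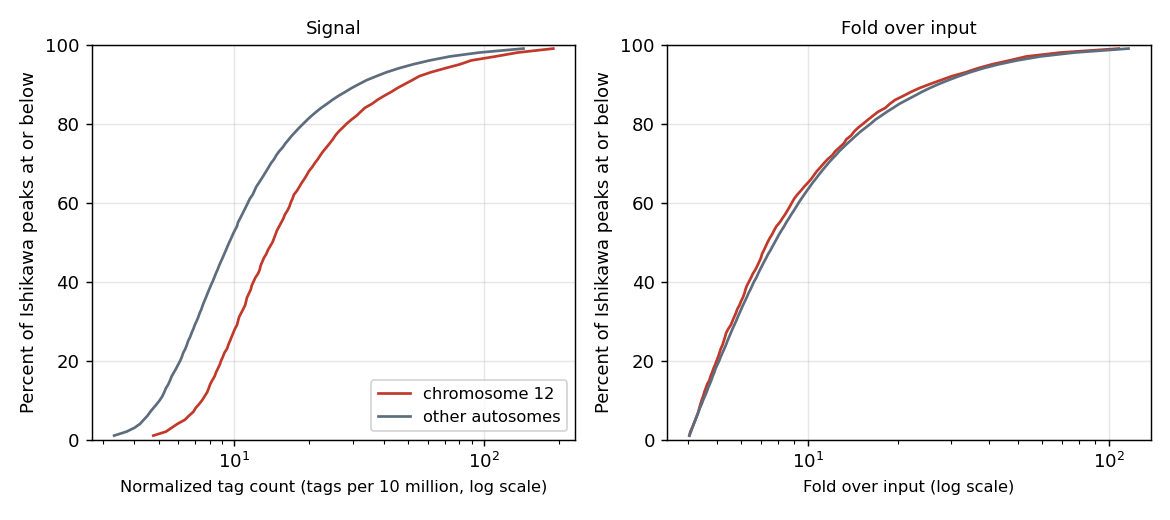
Percent of Ishikawa peaks at or below a given value, for chromosome 12 in red and the other autosomes in grey, with the normalized tag count in tags per 10000000 on the left and the input fold on the right, both on log axes. The signal curve of chromosome 12 lies to the right, with medians of 14.3 and 9.60, whereas the curves of input fold nearly coincide, with medians of 7.37 and 7.79.

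The share of chromosome 12 among the highest Ishikawa peaks differed with the measure used for ranking. Ranked by signal, 99 of the 1000 highest Ishikawa peaks lay on chromosome 12, which is 9.90% (95% Wilson interval 8.20% to 11.9%). Ranked by input fold, 48 of the 1000 highest did, 4.80% (3.64% to 6.31%), and ranked by local fold also 48. Chromosome 12 held 5.36% of the whole Ishikawa list, so its share was above that by signal and within the interval by either fold. In Hec1A its share of the 1000 highest peaks was 4.50% by signal (3.38% to 5.97%) and 5.70% by local fold (4.43% to 7.31%), against 4.63% of the whole list. These intervals cover counting error only and treat peaks as independent.

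**Figure D3:**
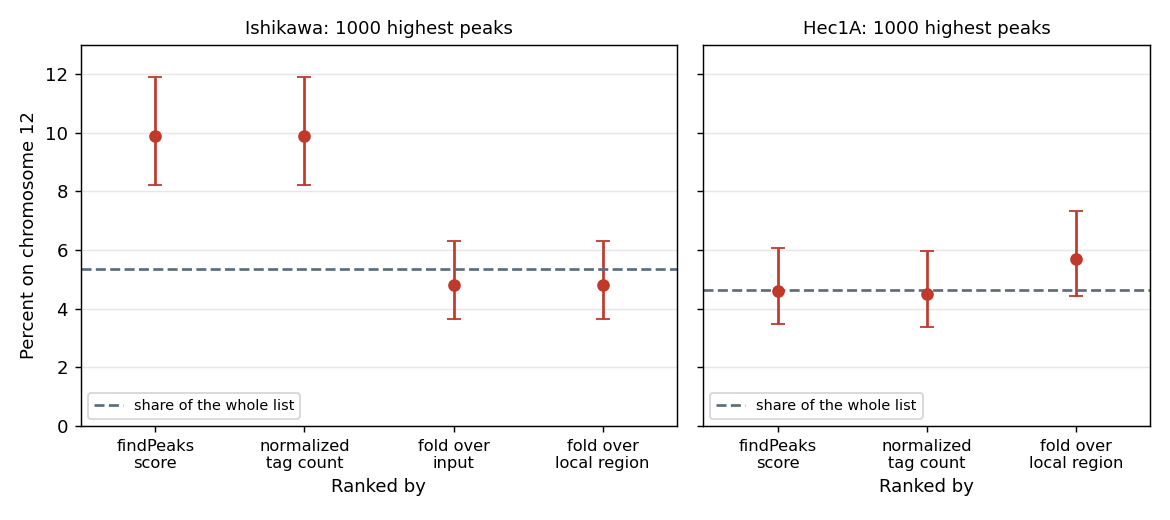
Percent of the 1000 highest peaks that lay on chromosome 12, by the measure used for ranking, in Ishikawa (left) and Hec1A (right), with 95% Wilson intervals. The dashed line is the share of the whole list, 5.36% in Ishikawa and 4.63% in Hec1A; in Ishikawa the 9.90% by signal lies above it and the 4.80% by input fold near it.

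Peaks were spread along both arms, from 217219 to 133707266 in Ishikawa and from 162943 to 133657288 in Hec1A. The median distance between neighbouring peak centres was 25.5 kb in Ishikawa and 104.7 kb in Hec1A. The largest stretch without an Ishikawa peak was 3.46 Mb long, from 34488576 to 37945443, and held 2 Hec1A peaks. The largest without a Hec1A peak, 3.17 Mb from 34841604 to 38016291, lay within almost the same bounds and held 2 Ishikawa peaks. Other stretches without a Hec1A peak did hold Ishikawa peaks, though not densely. That of 1.89 Mb from 27646813 to 29534009 held 31 Ishikawa peaks, and that of 1.74 Mb from 72671587 to 74406782 held 28. The median window of 1 Mb on chromosome 12 held 23.

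The balance between the lines changed along the chromosome. Over all of it there were 4.79 Ishikawa peaks for each Hec1A peak. The ratio was 11.0 at 20 to 30 Mb, where 243 Ishikawa and 22 Hec1A peaks lay. It was 9.67 at 70 to 80 Mb, with 261 and 27. It was 2.36 at 120 to 130 Mb, with 170 and 72, and 3.50 at 50 to 60 Mb, with 280 and 80. The share of Ishikawa peaks with a Hec1A partner was 24.1% at 120 to 130 Mb (95% Wilson interval 18.3% to 31.1%) and 5.76% at 20 to 30 Mb (3.46% to 9.44%). The share of Hec1A peaks with an Ishikawa partner varied less over the same 13 windows, between 56.8% and 69.9%, with 22 to 80 Hec1A peaks each. In each window as many Hec1A as Ishikawa peaks were shared. The Ishikawa share is thus the Hec1A share divided by the ratio of peaks, and no separate observation.

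Dense stretches of both lines only partly coincided. Of 134 windows of 1 Mb, 32 held 30 or more Ishikawa peaks, and the median window held 23 Ishikawa and 3 Hec1A peaks. Most Ishikawa peaks lay at 46 to 47 Mb, with 42 Ishikawa and 12 Hec1A peaks, of which 10 were shared. The next were 65 to 66 Mb with 41 Ishikawa and 4 Hec1A peaks, 76 to 77 Mb with 39 and 7, and 12 to 13 Mb with 38 and 13. The windows at 56 to 57 Mb and 89 to 90 Mb also held 38 Ishikawa peaks each, beside 13 and 8 Hec1A peaks. Hec1A was densest at 49 to 50 Mb and at 53 to 54 Mb, with 15 Hec1A peaks each beside 33 and 34 Ishikawa peaks. The order rests on where windows begin: shifted by 500 kb, the densest was 65.5 to 66.5 Mb with 55 Ishikawa and 9 Hec1A peaks. With only peaks at a local fold of at least 8, it was 12 to 13 Mb with 21 Ishikawa peaks.

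Across the 134 windows the Spearman rho between the peak counts of both lines was 0.476, given as a description, since windows share mappable length and gene content. There were 8 windows with Ishikawa peaks and none of Hec1A, the fullest of them at 59 to 60 Mb with 30 Ishikawa peaks. Hec1A outnumbered Ishikawa in 3 windows.

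Neighbouring sites formed runs. With centres at most 20 kb apart, 1027 Ishikawa peaks (34.9%) stood alone on chromosome 12 and 466 (15.9%) lay in 73 runs of 5 or more. On the other autosomes 40.5% stood alone and 10.7% lay in runs of 5 or more. Members of these long runs on chromosome 12 had a median signal of 18.95 and a median input fold of 8.96, against 12.5 and 7.02 for lone peaks. Their mean input was 8.65 tags per peak, against 7.49 for lone peaks. A Hec1A partner was found for 16.1% of run members (95% Wilson interval 13.04% to 19.7%) and 11.6% of lone peaks (9.77% to 13.7%). These intervals overlap, which is no test of the difference, and none was run. The part of input in these differences was not tested.

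The run with the most members spanned 150 kb from 46736918 to 46886677 and held 15 Ishikawa peaks. Their signals lay between 19.6 and 147.7, and the strongest, at 46748543 to 46748895, had no Hec1A partner. All 7 Hec1A peaks in the span fell on Ishikawa peaks, and the strongest Hec1A peak, at 46886371 to 46886625, had a signal of 25.9. The run's Ishikawa peak there had a signal of 50.2. Thus the strongest member differed between the lines.

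This run no longer had the most members with gaps of at most 10 kb or 40 kb, or at a local fold of at least 8. The next 4 runs by number of members, with gaps of at most 20 kb, held 2 Hec1A peaks together. A run of 11 Ishikawa peaks from 65837014 to 65962658 contained 1 Hec1A peak, at 65875806 to 65876060, which touched none of them. Its Ishikawa signals ranged from 4.86 to 135, and its median input fold was 5.87. The run of 10 from 81569369 to 81662721 and that of 9 from 45918709 to 46009410 contained no Hec1A peak. In the first the 3 strongest Ishikawa peaks had signals of 100.9, 63.9 and 50.1, and in the second a single peak of 159.9 stood beside 8 peaks of at most 19.3. The run of 9 from 20106489 to 20171686 had 4 peaks of similar signal between 64.9 and 98.9, 1 of them shared with Hec1A.

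The lists shared 382 sites on chromosome 12, counted where the deposited intervals had at least 1 bp in common. The centres of a shared pair lay a median of 14 bp apart, and 354 of the 382 pairs lay less than 100 bp apart. Sharing took in 62.2% of the Hec1A peaks on chromosome 12 (95% Wilson interval 58.3% to 66.0%) and 52.5% on all other chromosomes. The odds ratio of chromosome 12 over the others was 1.49, with 95% bounds of 1.26 and 1.76 (Fisher's exact test, two-sided, adjusted over 25 chromosomes, p = 1.9e-05). Of the 25 chromosomes 10 passed, which is 40%, and the value of chromosome 12 was known when it was picked. It was the highest of the 22 autosomes, with chromosome 14 next at 60.8% and chromosome 3 lowest at 39.5%. By the same exact test the call was lost at a local fold of at least 8 in both lists (odds ratio 1.303, adjusted p = 0.42) and at a clonal fold of 1 or less (1.26, adjusted p = 0.081).

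Of the Ishikawa peaks on chromosome 12, 12.99% had a Hec1A partner (95% Wilson interval 11.8% to 14.3%), and 12.8% on all other chromosomes. The odds ratio was 1.02, with bounds of 0.913 and 1.14 (Fisher's exact test, two-sided, adjusted p = 0.80), in a comparison in which 14 of 24 chromosomes passed (58.3%). With the Ishikawa list cut by score to the length of the Hec1A list, the direction turned, with an odds ratio of 0.766 by the exact test (adjusted p = 7.8e-04). Ishikawa scores stood higher on chromosome 12, with a median of 463.5 against 312 on the other autosomes. The part of this in the turn was not tested. At an input fold of at least 8 the odds ratio was 1.17 (exact test, adjusted p = 0.042).

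Clonality of the Hec1A peaks is given beside this, since it went with sharing. The clonal fold is the number of unique tag positions expected in a peak divided by the number found, so it grows as tags pile up on the same bases. It was above 1 for 19.7% of the Hec1A peaks on chromosome 12 and for 29.4% on the other autosomes. At a clonal fold of 1 or less, 69.6% of Hec1A peaks on chromosome 12 had an Ishikawa partner (65.4% to 73.5%), against 64.3% on the other autosomes (63.2% to 65.3%). Above 1 the shares were 32.2% (24.6% to 41.0%) and 24.3% (22.9% to 25.7%). The part of clonality in the sharing of chromosome 12 was not tested.

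The findPeaks score of a peak is a tag number. At like scores, chromosome 12 stood under the other autosomes in the Ishikawa list and above them in the Hec1A list, a description without a test. The 95% Wilson intervals of chromosome 12 and the other autosomes overlapped in the lowest of 4 equal parts of the Ishikawa list and in all but the lowest of the Hec1A list. Among the 25% of Ishikawa peaks with the highest scores, 24.6% of peaks on chromosome 12 had a Hec1A partner (22.2% to 27.1%) and 29.9% on the other autosomes (29.1% to 30.7%). Among the 25% of Hec1A peaks with the lowest scores, 34.8% of peaks on chromosome 12 had an Ishikawa partner (27.4% to 42.9%) and 21.4% on the other autosomes (19.98% to 22.9%). The highest 25% of the Ishikawa list held 41.1% of all Ishikawa peaks on chromosome 12 and 24.6% of those on the other autosomes. For Hec1A these shares were 27.2% and 25.1%.

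**Figure D4:**
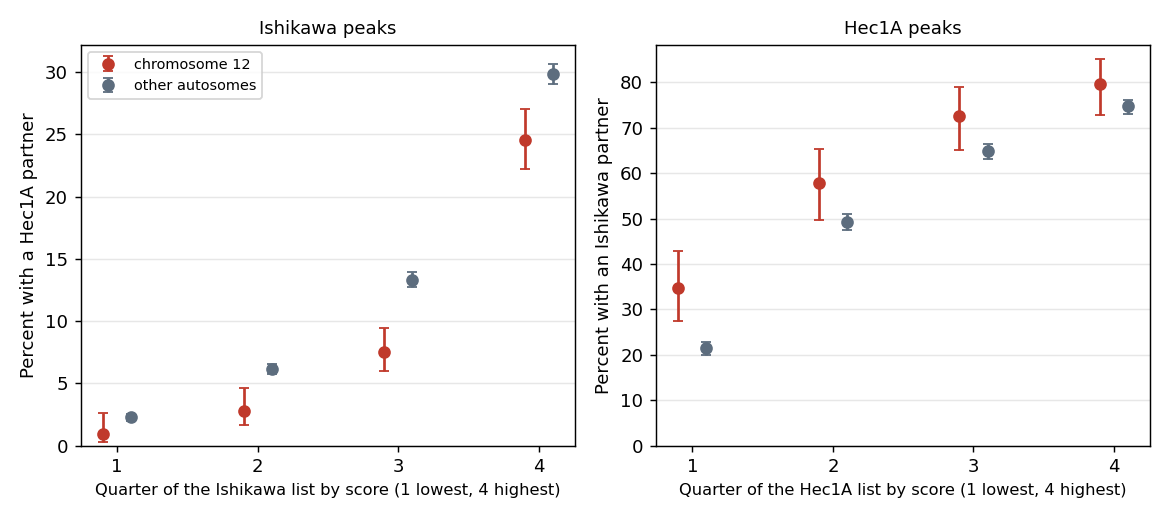
Percent of peaks with a partner in the other line, in 4 equal parts of the whole list ordered by score, for chromosome 12 in red and the other autosomes in grey, with 95% Wilson intervals. In each part the Ishikawa points of chromosome 12 lie lower (24.6% and 29.9% in the highest part) and the Hec1A points higher (34.8% and 21.4% in the lowest part). The median Ishikawa score was 463.5 on chromosome 12 and 312 on the other autosomes.

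Shared sites were the stronger ones in both lines. Shared Ishikawa peaks on chromosome 12 had a median signal of 29.5 and a median input fold of 13.6, against 13 and 7.03 for the 2558 Ishikawa-only peaks. Input averaged 9.23 tags at shared and 7.68 tags at Ishikawa-only peaks. Shared Hec1A peaks had a median signal of 5.52, against 4.12 for the 232 Hec1A-only peaks. Shared sites held 26.0% of the Ishikawa signal in peaks on chromosome 12 and 72.2% of the Hec1A signal there. On the other autosomes they held 27.5% and 56.2%. Shared peaks were stronger on those autosomes too, with median signals of 18.9 against 8.93 in Ishikawa and 5.66 against 4.54 in Hec1A.

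Signals of the lines were counted over unlike widths, 353 bp in Ishikawa and 254 bp in Hec1A, with at most 17 and 7 tags per bp, so their ratio is read between chromosomes and not as a difference in binding. Within shared pairs the Ishikawa signal was a median of 5.56 times the Hec1A signal on chromosome 12, with the middle 50% of pairs between 3.26 and 8.96. On the other autosomes the median was 3.47 over 6409 pairs, and the highest single autosome was chromosome 14 at 4.26. When the local fold was used in place of signal, the median ratio was 1.91 on chromosome 12 and 1.89 on the other autosomes, and 12 of 21 other autosomes were lower. Signals of both lines had a Spearman rho of 0.533 over the 382 pairs, a description, since the values of each line come from 1 pool.

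**Figure D5:**
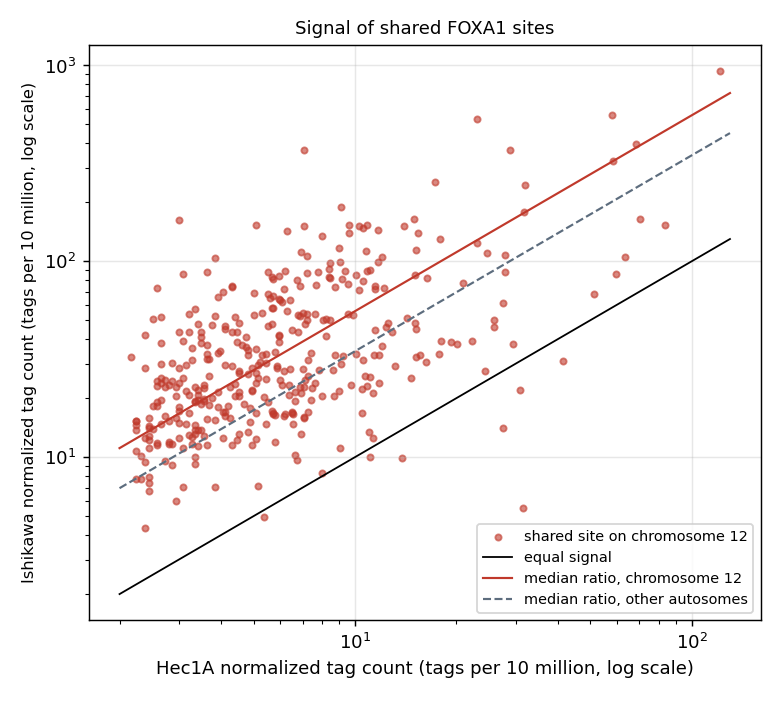
Normalized tag count of the 382 shared sites on chromosome 12 in Ishikawa (vertical) and Hec1A (horizontal), in tags per 10000000 on log axes. The red line marks the median ratio of 5.56 on chromosome 12, the dashed line the median of 3.47 on the other autosomes and the black line equal signal, under which 7 sites lie.

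The shared site of highest rank on chromosome 12 lay at 31902297 to 31902649 in Ishikawa. Its signal was 939 in Ishikawa and 121.8 in Hec1A, and its local fold 174.1 and 89.4. The next, at 52641165 to 52641517, had signals of 398 and 68.2. A pair of shared sites less than 20 kb apart followed, at 120740177 to 120740529 with signals of 560 and 58.2, and at 120755444 to 120755796 with 325 and 58.4. The first of these had the highest local fold of all Ishikawa peaks on chromosome 12, 234.2, and its Hec1A fold was 64.4. Both lines thus had a pair of strong sites side by side there.

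The remaining 4 of the 8 shared sites of highest rank had ratios of Ishikawa over Hec1A signal between 2.33 and 12.7. The site at 6480272 to 6480624 had signals of 368 in Ishikawa and 28.9 in Hec1A, and that at 4140460 to 4140812 had 246 and 31.9. The site at 125391225 to 125391577 had signals of 179 and 31.7. At 122885034 to 122885386 the signals were 164 in Ishikawa and 70.4 in Hec1A, and the local fold was lower in Ishikawa, 51.9 against 59.9 in Hec1A. Over these unlike widths Hec1A had the higher signal at 7 of the 382 pairs (1.83%), and at 6.48% of pairs on the other autosomes. By local fold Hec1A was higher at 55 pairs (14.4%), and at 17.3% of pairs on the other autosomes.

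The pairs were ranked by their ratio, so the extremes are given as a description. The highest ratio was 54.0 at 113683571 to 113683923, with a signal of 162.6 in Ishikawa and 3.01 in Hec1A. At 52513121 to 52513473 the ratio was 52.5, with signals of 371 and 7.06. The other 3 of the 5 highest lay at 64474364 to 64474716, 21825101 to 21825453 and 63557316 to 63557668, with ratios between 27.9 and 29.9. The last of these had 20 input tags, among the most on the chromosome.

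At the other end, Hec1A led most at 126518312 to 126518664, with a signal of 5.50 in Ishikawa and 31.5 in Hec1A, a ratio of 0.175. The Ishikawa peak there was weak, with an input fold of 5.32. At 120378732 to 120379084 the signals were 14.1 in Ishikawa and 27.5 in Hec1A. The remaining 3 pairs of lowest ratio, at 56912383 to 56912735, 127188816 to 127189168 and 48162150 to 48162502, had ratios between 0.710 and 0.747. The site at 126518312 lay 17.9 kb from one of the strongest peaks found in Hec1A alone, at 126536300 to 126536554 with a signal of 17.9.

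Among peaks found in Ishikawa alone, that at 71849170 to 71849522 had a signal of 1179, the highest on chromosome 12, with 8 input tags. It ranked 1 of the Ishikawa list by score, 17 by input fold and 184 by local fold, which was 94.4. Its local background of 12.5 tags per 10000000 was above the 1.98 that was the median of the chromosome. The peak at 117135911 to 117136263 had a signal of 625, the highest focus ratio of the 8, 0.989, and rank 33 by local fold. At 59424171 to 59424523 the signal was 452, and no Hec1A peak lay closer than 501 kb.

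The other 5 of the 8 Ishikawa-only peaks of highest score had signals between 310 and 554 and input folds between 120.1 and 252. The peak at 52524562 to 52524914 had the nearest Hec1A peak, 11.4 kb away. That at 46082020 to 46082372, with the highest input fold of these 5, lay less than 100 kb past the run of 9 peaks without a Hec1A peak. The others were at 20068286 to 20068638, 109047058 to 109047410 and 78494895 to 78495247. The last had the lowest local fold of the 8, 20.1, within a local background of 15.8. All 8 were on the high side of the list by score, at rank 92 or better, but by input fold they ranked between 17 and 689.

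The 8 peaks of highest score found in Hec1A alone had lower signals than the 8 of Ishikawa, counted over unlike widths. Their local folds overlapped, since the lowest of the 8 in Ishikawa was 20.1. The strongest Hec1A-only peak, at 20704329 to 20704583, had a signal of 36.6, a local fold of 46.0, a focus ratio of 0.753 and a clonal fold of 1.13. The next, at 60660412 to 60660666, had a signal of 31.2 and a focus ratio of 0.985, and no Ishikawa peak lay closer than 51.8 kb. The other 6 of the 8 highest had signals between 11.9 and 19.6. They lay at 89319862 to 89320116, 126536300 to 126536554, 60045935 to 60046189, 18082026 to 18082280, 5695451 to 5695705 and 14219044 to 14219298. The best of the 8 ranked 224 in the Hec1A list by score.

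Of the 232 Hec1A-only peaks, 104 (44.8%) had an Ishikawa peak with its centre within 10 kb, 16 of them within 1 kb. On the other autosomes the share within 10 kb was 37.2%. Of the 2558 Ishikawa-only peaks, 237 (9.27%) had a Hec1A peak within 10 kb and 1127 (44.1%) had none within 100 kb. These shares were near those of the other autosomes, 9.26% and 41.7%. The median distance on chromosome 12 was 12.4 kb for Hec1A-only and 81.4 kb for Ishikawa-only peaks, which the lower number of Hec1A peaks affects. On the other autosomes it was 15.6 kb and 75.8 kb.

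Chromosome 12 took a somewhat higher share of the Ishikawa list, 5.36% of Ishikawa peaks against 4.63% of Hec1A peaks. The odds ratio was 1.17, with 95% bounds of 1.07 and 1.27 (Fisher's exact test, two-sided, adjusted p = 0.0012). In this comparison 16 of 25 chromosomes passed (64%). With autosomes only, the call was kept (odds ratio 1.17, exact test, adjusted p = 9.1e-04). By the exact test the call was lost at a local fold of at least 8 (odds ratio 1.03, adjusted p = 0.81), at an input fold of at least 8 in Ishikawa (1.09, adjusted p = 0.12) and at a clonal fold of 1 or less (1.04, adjusted p = 0.52). With the Ishikawa list cut by score to the length of the Hec1A list, the odds ratio was 2.00 (exact test, adjusted p = 1.6e-41). A cut by score favours chromosome 12, since its median Ishikawa score was 463.5, against 312 for the other autosomes together. The value of 2.00 is therefore not read as a higher share of binding sites.

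The tags of chromosome 12, of ChIP and of input, were also divided by 1.48, the ratio of input. They were put again through the authors' threshold of 88 tags and their Poisson threshold over input, a p of 1e-04. The input fold does not change under this division. Of the 2940 Ishikawa peaks 2873 still passed and 67 did not, which is 2.28%, and none of the 67 had a Hec1A partner. Of the 67, 65 failed the threshold of 88 tags, so their scores were low. Partners were rare at low scores: of the 328 Ishikawa peaks of this chromosome scoring from 88 to 202, 3 had one (0.915%). The lack of partners thus does not set the 67 apart. Only listed peaks of this chromosome could be put through again, so the number of passing peaks could only fall. With the 67 left out, the share of chromosome 12 kept its call (odds ratio 1.14, Fisher's exact test, adjusted p = 0.0067). For each protein-coding gene that RefSeq places on chromosome 12 in GRCh38.p14 there were 2.87 Ishikawa and 0.5996 Hec1A peaks, within the ranges of the other autosomes of 0.875 to 5.86 and 0.371 to 1.07.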

How the data were processed

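Per the file headers, the authors pooled the ChIP tags by line and called peaks with HOMER findPeaks in its factor style. The submitters' processing notes name Bowtie 1.1.2, SAMtools 1.3.1, HOMER 4.7.2 and hg19. Thresholds were a false discovery rate of 0.001 (88 tags in Ishikawa, 32 in Hec1A), a fold of 4 over the surrounding 10000 bp and at most 2 times fewer unique positions than expected. In Ishikawa a fold of 4 over pooled input and a Poisson p of at most 1e-04 over it were also required. No input stands in the Hec1A command, so the lists passed unlike filters. TruSeq and ThruPLEX libraries are mixed in both pools, per the labels' protocols, so kit and pool cannot be told apart.

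The deposited signal is a tag count per 10000000 tags. Deposited folds over input, local region and clonality are ratios, the focus ratio is a fraction, and the findPeaks score is a tag number. Scores and folds are the authors' values. Scores ranked peaks within their list, and local folds were also set side by side at shared sites, although the lists differ in peak width and tag limits. Deposited p-value columns were not used.

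Shares of chromosomes were compared with Fisher's exact test and Benjamini-Hochberg adjustment over all chromosomes, with 95% Woolf intervals of odds ratios, in Python 3.11.15 with SciPy 1.17.1. The test treats peaks as independent, which neighbouring peaks are not, and compares 2 lists with no replicate error. The procedures were tested on simulated lists whose peaks were drawn independently. Such lists cannot tell how the tests behave with dependent neighbours or a raised tag level on a chromosome. Named are the 8 peaks of highest score among shared (by mean rank), Ishikawa-only and Hec1A-only peaks, the 6 with the most input, the 6 and 3 densest windows of 1 Mb, the 5 longest runs and the 5 highest and lowest ratios. The region, its peaks and these rules were chosen with earlier results of these data known.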

Additional observations from a re-analysis of the deposited data

How the results depend on the processing

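Of 51 alternatives 30 left the result on its side of the threshold, within the spread of the other autosomes or, for counts, within 1.5 times. Of the 51, 17 were chosen after seeing the data. The share of peaks on chromosome 12 lost its call at a local fold of at least 8 (odds ratio 1.03), an input fold of at least 8 (1.09) and at a clonal fold of 1 or less (1.04). Sharing of the Hec1A peaks lost it at the first (1.303) and last (1.26) of these. The share of Ishikawa peaks with a partner passed at an input fold of at least 8 (1.17). It turned to 0.766 with the Ishikawa list cut to the Hec1A length by score, which stood higher on chromosome 12. The ratio of input was 1.60 by medians, 1.56 at an input fold of at least 8 and 1.44 at a local fold of at least 8. With clonal folds of at most 1, the ratio of signal was 1.53, that of input fold 0.988, and shared Ishikawa peaks had 6.003 times the Hec1A signal. At a local fold of at least 8 the ratio of input fold turned to 1.05, and that of the Hec1A local fold, 1.05 over all peaks, to 0.978. By local fold the shared ratio was 1.91. Windows of 2 Mb held up to 69 Ishikawa peaks, and windows of 1 Mb up to 21 at a local fold of at least 8. The run with the most members, or the first by position where runs tied, was another one each time, with 6 members at gaps of 10 kb (from 46956670), 24 at 40 kb (from 65700800) and 5 at that fold (from 14393094). The causes of these changes were not tested. No paired analysis was possible because each list rests on a pool of libraries, and for this reason none was left out.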
